A study of Rattus norvegicus with 46 samples.

Results

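The Ube2 genes and the numbered Usp genes of the array, the ubiquitin-conjugating enzymes and the ubiquitin-specific proteases, were followed in paralysed rat muscle with and without passive loading. Members were chosen by name: all genes whose platform symbol starts with Ube2, or with Usp followed by a digit. This gave 66 of the 14317 genes with 1 symbol, 26 Ube2 and 40 Usp genes, and each was read from its probe set with the highest mean over the 46 arrays. After a filter on low values 60 of them were tested, 24 Ube2 and 36 Usp genes, among 9289 genes in all. Ube2l6, Ube2t, Usp26, Usp29, Usp43 and Usp44 did not pass the filter. The symbol rule also takes in Usp6nl, which encodes a GTPase-activating protein for Rab proteins and no protease. Ube2m shares its probe set's annotation with another gene, so it is not named here.

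The proximal gastrocnemius muscle of both legs was profiled in 23 female Sprague-Dawley rats on 46 Affymetrix arrays, 1 per leg. All rats were anaesthetised with isoflurane, paralysed with the neuromuscular blocker α-cobrotoxin and mechanically ventilated, and none was left untreated. A lever flexed and extended the left ankle passively, 13.3 times per minute, over 12 h of each day or once for 6 h in the shortest experiments, while the opposite leg stayed unloaded. The groups are the loaded and the unloaded legs of 13 rats studied for 6 h to 4 d, 4 rats for 5 to 8 d and 6 rats for 9 to 14 d, so a change with duration is against rats that had already been paralysed for up to 4 d. The animals' age was not used here, and a window pools rats of different durations.

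Ubiquitin is activated by an E1 enzyme, passed to an E2 conjugating enzyme and attached to a substrate with the help of an E3 ligase. The E2 often sets the type of chain that is built: one common type marks a protein for the proteasome, and another serves in signalling, DNA repair and membrane traffic. Ubiquitin-specific proteases, the largest family of deubiquitinases, take ubiquitin off again, edit chains and recycle it. In wasting muscle the system is best known for its E3 ligases Trim63 and Fbxo32, but several E2s and proteases, among them Ube2b, Usp14 and Usp19, have also been studied there.

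Values are deposited log2 expression values, on which 1 unit is a doubling. The medians of the arrays lay between 6.07 and 6.20, and the 46 arrays limit the precision. The skeletal muscle fibre markers, 9 of 10 of which were measured, had mean log2 values from 12.53 to 13.64 per leg. Each label ends in 1 of 5 number codes, called label codes here, whose meaning the labels do not give. Only label code 3, with 4, 2 and 4 rats, occurs in all 3 windows. In the shortest window the legs of rats 35 and 37 (rats carry their unloaded leg's number here) often lay near the later windows for the genes below. Leaving out early legs that lie near the later ones widens a difference with duration by construction. Values and calls given without these rats are thus descriptions and no test of how firm a change is.

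With duration, more of the proteases than of the conjugating enzymes passed the test, a difference that was not itself tested. In unloaded legs at 9 to 14 d against 6 h to 4 d, 22 of 36 Usp genes passed the test (10 higher and 12 lower), against 5 of 24 Ube2 genes (4 higher and 1 lower). In loaded legs the counts were 23 of 36 (13 higher and 10 lower) and 8 of 24 (4 higher and 4 lower). The background was high: of all 9289 genes, 45.6% passed in unloaded legs (28.7% higher and 16.9% lower) and 44.2% in loaded legs (29% higher and 15.2% lower). The Usp shares were thus 61.1% and 63.9%, above the background, and the Ube2 shares 20.8% and 33.3%, below it. The difference between the families was not tested. The median absolute log2 difference was 0.13 for Ube2, 0.33 for Usp and 0.27 for all genes in unloaded legs, and 0.12, 0.34 and 0.26 in loaded legs. With the label code as a block, 15 of 60 members passed in unloaded and 15 in loaded legs, near the shares of 23.4% and 20% of all genes in the same fits. The Ube2 genes among them were Ube2g1, Ube2n and Ube2w in unloaded legs. In loaded legs they were Ube2b, Ube2g1, Ube2g2, Ube2n and Ube2z, so the Ube2 share was not below that of all genes there. In the rats of label code 3 alone 7 and 2 members passed, against 9.73% and 4.88% of all genes. These were Ube2g1, Usp1, Usp10, Usp11, Usp13, Usp24 and Usp47 in unloaded and Usp10 and Usp24 in loaded legs, and the calls of all other members were lost there.

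**Figure D1:**
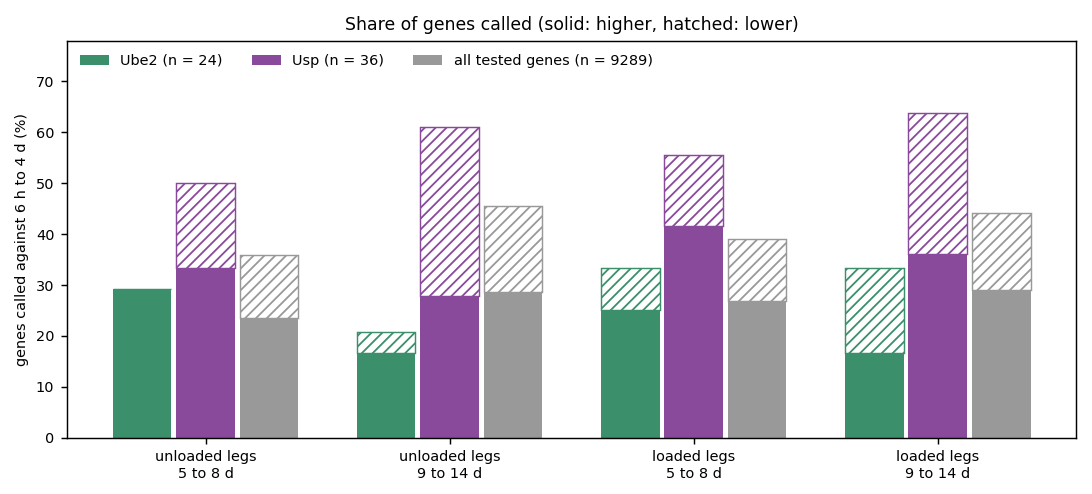
Percentage of genes that passed the test (limma, adjusted p under 0.05) against 6 h to 4 d, for 24 Ube2 genes, 36 Usp genes and all 9289 tested genes, in unloaded and loaded legs of the later windows. Solid bars are genes higher and hatched bars genes lower; at 9 to 14 d the Usp bars reach 61.1% and 63.9% and the Ube2 bars 20.8% and 33.3%.

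Among the E2s, Ube2n and Ube2z rose most, in both legs. Ube2n, the enzyme that builds signalling chains together with Ube2v1 or Ube2v2, ran from 8.80 to 9.21 in unloaded legs at 6 h to 4 d (median 9.05). At 9 to 14 d it ran from 9.35 to 9.91 (median 9.79), so the groups did not overlap. The log2 rise was 0.66 (SE 0.088, adjusted p = 2.89e-06, 1.58-fold), and in loaded legs 0.55 (SE 0.086, 1.46-fold, adjusted p = 2.58e-05). The 4 unloaded legs of 5 to 8 d had 9.82, 9.41, 9.64 and 9.64 and the loaded ones 9.52, 9.27, 9.62 and 9.65, so Ube2n was already up by then in both. The other probe sets of the gene gave rises of 0.72 and 0.54 in unloaded legs, but near-identical copies of Ube2n and Ube2v1 exist, so their values are uncertain. The rise was 0.56 in the unloaded legs of label code 3 alone (adjusted p = 0.0586) and 0.42 in the loaded ones (adjusted p = 0.121).

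The non-catalytic partners of Ube2n did not pass at 9 to 14 d. Ube2v1 differed by 0.18 in unloaded and 0.04 in loaded legs. Ube2v2 was higher at 5 to 8 d, by 0.46 in unloaded legs (adjusted p = 0.0258) and 0.47 in loaded legs (adjusted p = 0.0147). Both of these calls were lost with the label code as a block, in label code 3 alone, and without rat 53 or 55. At 9 to 14 d Ube2v2 differed by -0.05 and -0.02. Between the later windows it differed by -0.51 in unloaded legs, which was not called (adjusted p = 0.156).

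Ube2z, an E2 charged by the E1 enzyme Uba6, ran from 8.54 to 9.40 (median 8.74) in unloaded legs at 6 h to 4 d and from 9.30 to 9.47 (median 9.36) at 9 to 14 d. It rose by 0.58 (SE 0.10, 1.49-fold, adjusted p = 9.32e-05) in unloaded and 0.63 (SE 0.11, 1.55-fold, adjusted p = 8.05e-05) in loaded legs. The groups overlapped by the highest of the early legs. Uba6 itself rose by 0.65 (adjusted p = 0.00023) and 0.54 (adjusted p = 0.00048). The differences of Ube2z within label code 3 were 0.32 and 0.47, neither called.

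The 7 measured broad-range E2s, which serve many ligases, included 2 that rose in both legs. Ube2e1 was higher by 0.27 in unloaded and 0.28 in loaded legs, and Ube2w, which attaches ubiquitin to the amino end of proteins, by 0.32 and 0.41. The rise of Ube2w in loaded legs no longer passed without rat 51, 57 or 59, nor after cyclic loess. In unloaded legs its call was lost after cyclic loess and with array quality weights. It was also lost there without any 1 of rats 15, 21, 29, 31, 33, 37, 49, 51, 57 or 59. The call of Ube2e1 was lost after cyclic loess in both legs, and in loaded legs without rat 57 or 59. Ube2d1 and Ube2d3, members of the most promiscuous E2 group, were not called at 9 to 14 d, with differences of 0.07 and 0.12 in unloaded and -0.17 and 0.10 in loaded legs. The sign of Ube2d3 turned after cyclic loess, and it was called without rats 35 and 37 (0.15 and 0.14). At 5 to 8 d, however, Ube2d3 was higher by 0.24 in unloaded and 0.22 in loaded legs. Ube2d1 was lower then by 0.49 in loaded legs (adjusted p = 0.00691). These calls were lost with the label code as a block and in label code 3 alone, and those of Ube2d3 also after cyclic loess. Ube2l3, which serves HECT and RBR ligases, differed by 0.03 and 0.01 and was not called.

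The E2s that fell were mostly called in loaded legs. Ube2b, a Rad6-type E2 that acts with ligases of the N-degron pathway, ran in loaded legs from 11.55 to 11.99 (median 11.92) at 6 h to 4 d and from 10.97 to 11.67 (median 11.48) at 9 to 14 d. Most of the late legs lay below the early ones, with some overlap. The fall there was 0.43 (SE 0.090, adjusted p = 0.000576, 1.34-fold). In unloaded legs the late values ran from 11.35 to 11.97 and the difference was -0.17 (adjusted p = 0.113), which passed without rat 57 and, at -0.32, after cyclic loess. The difference between the legs in this change was not called (-0.26, 95% interval -0.45 to -0.07, adjusted p = 0.552). In label code 3 the differences were -0.38 in loaded and -0.18 in unloaded legs.

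Ube2g1, which extends degradative chains on substrates of cullin ligases, was lower by 0.31 in unloaded (SE 0.11, 1.24-fold, adjusted p = 0.0242) and 0.33 in loaded legs (SE 0.081, 1.26-fold, adjusted p = 0.00202). The call in unloaded legs was lost without rat 47 or rat 49. Ube2g2, its relative in the degradation of proteins from the endoplasmic reticulum, differed by -0.36 in unloaded legs (adjusted p = 0.0678) and fell by 0.37 in loaded ones (adjusted p = 0.00736). Ube2f, which conjugates the ubiquitin-like protein NEDD8, differed by -0.15 and fell by 0.35 in loaded legs (adjusted p = 0.0109). Ube2j1 of the endoplasmic reticulum and Ube2c and Ube2s, the E2s of the anaphase-promoting complex, differed by at most 0.18 in both legs and were not called. Without rats 35 and 37, Ube2j1 was called in loaded legs (0.30).

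**Figure D2:**
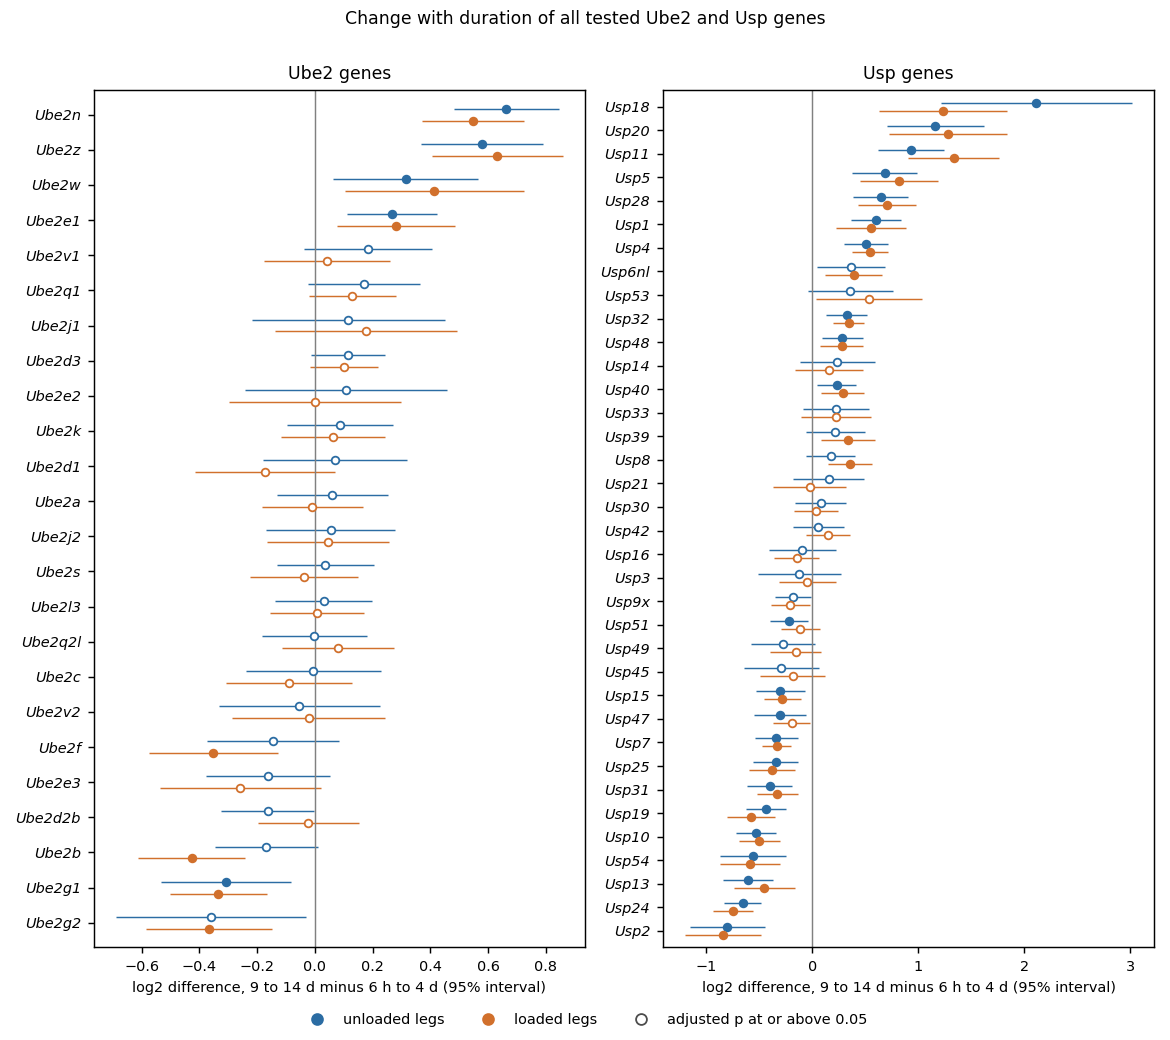
Log2 difference between 9 to 14 d and 6 h to 4 d for each of the 24 Ube2 genes (left) and 36 Usp genes (right) tested, in unloaded and loaded legs, with 95% intervals; the axes of the panels differ, and filled points passed the test. Ube2n and Ube2z lie farthest right among the E2s (0.66 and 0.58 in unloaded legs), and Usp2 and Usp24 farthest left among the proteases (-0.80 and -0.66).

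The promoters of 4 members called in both legs are shown. Usp20 and Usp11 had the largest rises among genes with group means above the lowest array median, and Usp2 and Usp19 fell. They are RefSeq sequences of GRCr8, from 250 bases before to 50 after the start of the gene, read 5′ to 3′ along the gene's strand. Capitals mark the motifs searched on both strands: GGGCGG (a GC box), and CCAAT. A further motif was CAGCTG, an E-box bound by myogenic factors. Clock factors bind the E-box CACGTG, which was searched as well. The last motif was GTAAACA, which FoxO factors bind. The windows are chr3:34670435-34670734 (plus strand), chrX:4042987-4043286 (minus strand), chr8:53310620-53310919 (plus strand) and chr8:118070713-118071012 (plus strand).
Usp20: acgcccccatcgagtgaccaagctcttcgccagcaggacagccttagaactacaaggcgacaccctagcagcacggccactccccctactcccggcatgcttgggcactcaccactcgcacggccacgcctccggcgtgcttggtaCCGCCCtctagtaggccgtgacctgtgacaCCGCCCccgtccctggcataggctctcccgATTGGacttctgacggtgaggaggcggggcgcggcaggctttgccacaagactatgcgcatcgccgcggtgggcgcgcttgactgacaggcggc
Usp11: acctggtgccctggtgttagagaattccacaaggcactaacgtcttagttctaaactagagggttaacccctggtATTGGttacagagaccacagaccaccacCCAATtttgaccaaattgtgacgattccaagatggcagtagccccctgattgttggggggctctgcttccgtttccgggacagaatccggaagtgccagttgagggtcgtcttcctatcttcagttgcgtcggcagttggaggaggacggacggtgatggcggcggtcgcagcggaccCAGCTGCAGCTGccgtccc
Usp2: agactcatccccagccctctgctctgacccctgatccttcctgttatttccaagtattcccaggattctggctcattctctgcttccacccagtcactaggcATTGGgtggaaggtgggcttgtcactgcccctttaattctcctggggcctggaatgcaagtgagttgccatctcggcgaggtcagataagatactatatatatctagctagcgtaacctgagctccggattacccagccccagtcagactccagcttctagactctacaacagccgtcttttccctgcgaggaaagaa
Usp19: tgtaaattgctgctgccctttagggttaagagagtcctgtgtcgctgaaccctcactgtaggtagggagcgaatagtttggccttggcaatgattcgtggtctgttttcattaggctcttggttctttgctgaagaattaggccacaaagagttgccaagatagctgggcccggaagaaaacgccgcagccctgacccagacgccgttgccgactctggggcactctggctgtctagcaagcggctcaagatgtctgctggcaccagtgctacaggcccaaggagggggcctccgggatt

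The Usp20 promoter held 2 GC boxes and 1 CCAAT, that of Usp11 held 2 CCAAT and 2 adjoining matches of CAGCTG, that of Usp2 held 1 CCAAT, and in that of Usp19 none of the 5 motifs matched. CAGCTG is its own reverse complement, as is CACGTG, so each site was counted once. Of the 66 members 54 matched a promoter. GGGCGG occurred in 15 of 22 Ube2 promoters and 22 of 32 Usp promoters, against 33.1% of all 33469 promoters of this length and 41.8% of those of protein-coding genes. CCAAT occurred in 7 and 9, against 37.5% of all. CAGCTG occurred in 2 and 6 (15.1% of all), CACGTG in 1 and 4 (6.42%), and GTAAACA in 0 and 2 (3.78%). A match says only that these letters are in the window.

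Among the proteases, Usp20 and Usp11 had the largest rises with measured levels in all groups. Usp20, which removes ubiquitin from membrane receptors and other substrates, ran from 7.20 to 8.74 (median 7.55) in unloaded legs at 6 h to 4 d. At 5 to 8 d the 4 legs had 9.02, 8.73, 9.44 and 9.37, and at 9 to 14 d they ran from 8.62 to 9.34 (median 8.87). The groups overlapped through rats 35 and 37 of the short window, at 8.74 and 8.52. The rise at 9 to 14 d was 1.16 (SE 0.22, 2.24-fold, adjusted p = 0.000203), and in loaded legs 1.28 (SE 0.27, 2.43-fold, adjusted p = 0.000546). Without these rats it was 1.31 and 1.48. Among the rats of label code 3 it was 0.56 and 0.53 and not called (adjusted p = 0.192 and 0.302).

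Usp11, known from DNA repair and TGF-β signalling, ran in loaded legs from 5.87 to 7.28 (median 6.46) at 6 h to 4 d and from 7.32 to 8.67 (median 7.76) at 9 to 14 d, with no overlap. The 4 loaded legs of 5 to 8 d had 7.67, 7.36, 7.19 and 7.32. The rise at 9 to 14 d was 1.34 (SE 0.21, 2.52-fold, adjusted p = 2.47e-05) in loaded and 0.93 (SE 0.15, 1.91-fold, adjusted p = 3.85e-05) in unloaded legs. Among the rats of label code 3 it was 1.05 in loaded legs (adjusted p = 0.0744) and 0.88 in unloaded legs (adjusted p = 0.0322).

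Usp5, which takes apart free ubiquitin chains, ran from 8.77 to 9.88 (median 9.10) in unloaded legs at 6 h to 4 d and from 9.78 to 10.07 (median 9.86) at 9 to 14 d. The early legs of rats 35 and 37, at 9.84 and 9.88, made the overlap. It rose by 0.69 (SE 0.15, 1.61-fold, adjusted p = 0.00074) in unloaded and 0.82 (SE 0.18, 1.76-fold, adjusted p = 0.000712) in loaded legs. Without these rats the rise was 0.80 and 0.98, and within label code 3 the differences were 0.38 and 0.32 and were not called. Usp14, the protease that edits chains at the proteasome, differed by 0.24 and 0.15 and was not called in any window over all rats. It was called in unloaded legs at 9 to 14 d without rats 35 and 37 (0.36, adjusted p = 0.0477).

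Usp28, which stabilises Myc, rose by 0.65 in unloaded (SE 0.13, 1.57-fold, adjusted p = 0.000265) and 0.70 in loaded legs (SE 0.13, 1.63-fold, adjusted p = 0.000181). Its unloaded legs ran from 8.64 to 9.41 in the short window and from 9.42 to 10.22 in the long one and did not overlap. Usp1, which works with the cofactor Wdr48 on DNA repair proteins, rose by 0.60 (SE 0.12, 1.52-fold, adjusted p = 0.000214) and 0.55 (SE 0.16, 1.47-fold, adjusted p = 0.00673). Usp4 rose by 0.51 and 0.54 and Usp32 by 0.32 and 0.34, and Usp48 and Usp40 rose by 0.23 to 0.29 in each leg. Calls of Usp48 and Usp40 were lost, among other fits, with array quality weights in unloaded legs, and in loaded legs without rat 57 or 59. In loaded legs of label code 3 the differences were 0.29 for Usp1 (adjusted p = 0.418), 0.09 for Usp40 and 0.04 for Usp48.

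**Figure D3:**
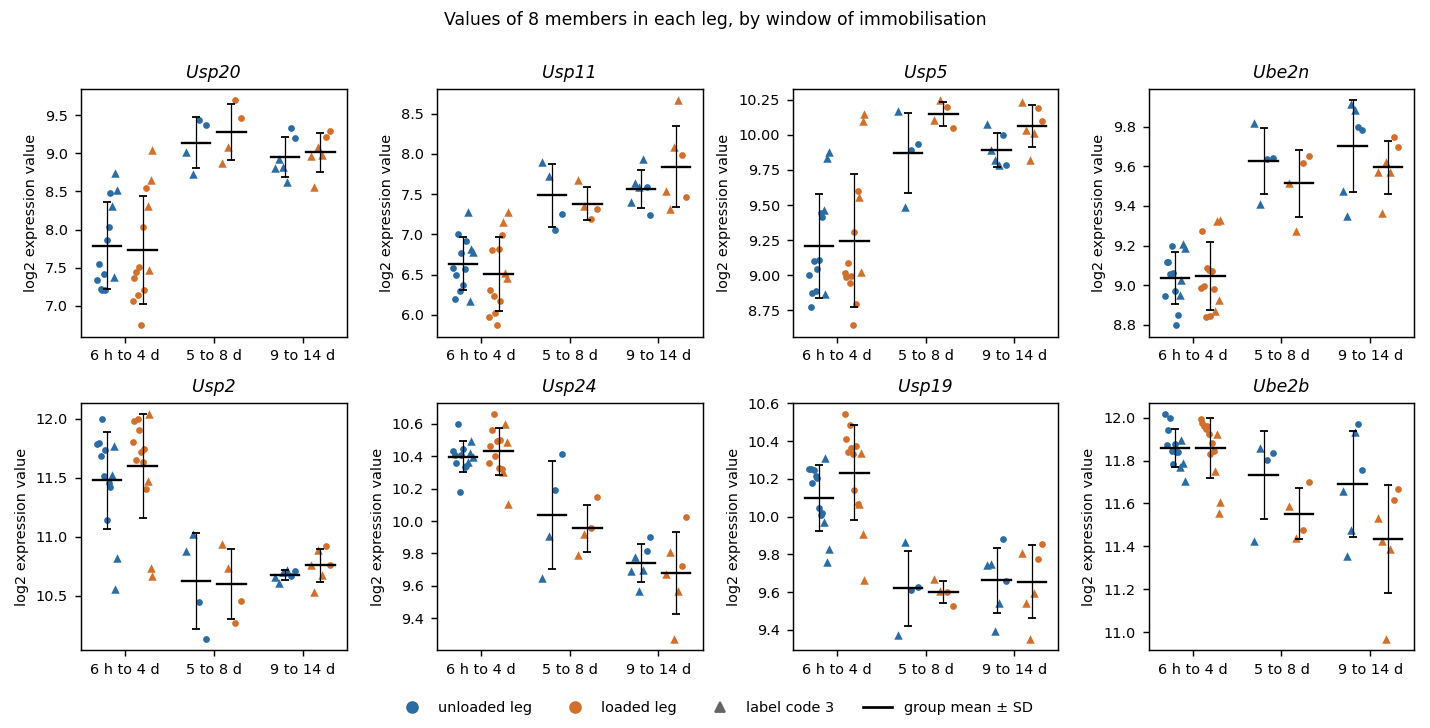
Log2 expression values of 8 members in each of the 46 legs, by window (unloaded legs in blue, loaded in orange; triangles are rats of label code 3; lines and bars are the group mean ± SD; each panel has its own axis). Usp20, Usp11, Usp5 and Ube2n are higher and Usp2, Usp24 and Usp19 lower in the later windows; the lowest early Usp2 values are legs of rats 35 and 37.

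Usp2 fell most. This protease, whose transcript cycles with the circadian clock in many tissues, ran from 10.56 to 12.00 (median 11.53) in unloaded legs at 6 h to 4 d and from 10.61 to 10.72 (median 10.68) at 9 to 14 d. Of the 13 early legs, those of rats 35 and 37, at 10.56 and 10.82, lay in or near the late range. Usp2 fell by 0.80 (SE 0.17, adjusted p = 0.000598, 1.74-fold) in unloaded and by 0.84 in loaded legs (SE 0.17, 1.79-fold, adjusted p = 0.000462). At 5 to 8 d the unloaded legs had 10.88, 11.02, 10.45 and 10.13. Without rats 35 and 37 the difference in unloaded legs was -0.95. Those within label code 3 were -0.50 and -0.51 and were not called (adjusted p = 0.21 and 0.291). Of 11 measured clock genes 6 fell in unloaded and 5 in loaded legs and none rose, among them Per1 by 1.13 and 1.16. Over all genes 16.9% and 15.2% fell. The mean of the clock list ran from 8.91 to 9.33 per unloaded leg at 6 h to 4 d and from 8.66 to 8.94 at 9 to 14 d. The part of these genes in the fall of Usp2 was not tested.

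Usp24, a very large protease with substrates in the DNA damage response, fell in both legs without overlap. Its unloaded legs ran from 10.18 to 10.60 (median 10.41) at 6 h to 4 d and from 9.57 to 9.90 (median 9.74) at 9 to 14 d. The fall was 0.66 (SE 0.085, 1.58-fold, adjusted p = 2.1e-06), and 0.75 in loaded legs (SE 0.092, 1.68-fold, adjusted p = 1.25e-06). Within label code 3 the values were -0.73 (adjusted p = 0.00391) and -0.79 (adjusted p = 0.0249). Usp10, which acts on p53 and binds stress granule proteins, fell by 0.53 and 0.50 over all rats, with -0.60 and -0.52 within label code 3 (adjusted p = 0.0199 and 0.0442).

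Usp19, a protease with an isoform anchored in the endoplasmic reticulum and one of those studied in wasting muscle, ran from 9.76 to 10.31 (median 10.18) in unloaded legs at 6 h to 4 d and from 9.40 to 9.88 (median 9.70) at 9 to 14 d. It fell by 0.44 (SE 0.092, 1.35-fold, adjusted p = 0.000593), and by 0.58 in loaded legs (SE 0.11, 1.49-fold, adjusted p = 0.000181). The 4 unloaded legs of 5 to 8 d had 9.37, 9.86, 9.61 and 9.63, so the level was already lower by then. In label code 3 alone the differences were -0.36 and -0.42 and were not called. Usp30, which removes ubiquitin at the outer mitochondrial membrane, differed by 0.08 and 0.03 and was not called.

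Usp7, which acts on Mdm2 and p53, fell by 0.34 in unloaded (SE 0.098, adjusted p = 0.00697) and in loaded legs (SE 0.067, adjusted p = 0.000333), and its relative Usp47 fell by 0.31 in unloaded legs and differed by -0.20 in loaded ones. Usp54, long described as lacking protease activity, fell by 0.56 and 0.59, against -0.27 and -0.19 in its dimmer probe set. Its values were -0.28 and -0.33 in label code 3 and -0.25 and -0.33 with the label code as a block, not called in either (adjusted p = 0.406 and 0.346, and 0.267 and 0.145). Usp53, described in the same way, was higher at 5 to 8 d by 0.72 in unloaded (adjusted p = 0.0163) and 0.74 in loaded legs (adjusted p = 0.0427). Both calls were lost with the label code as a block, in label code 3 alone and without rat 41. That in loaded legs was also lost without the filter, after cyclic loess and without rats 35 and 37. Leaving out any 1 of rats 13, 15, 21, 27, 33, 35, 53 or 55 lost it as well. At 9 to 14 d Usp53 differed by 0.36 and 0.54, not called, and in loaded legs the latter passed without rat 23, 45 or 47. Usp31 fell by 0.40 and 0.33, Usp15 by 0.30 and 0.28, and Usp51 fell by 0.22 in unloaded legs. Several calls in unloaded legs hung on single rats. That of Usp51 was lost without any 1 of rats 11, 17, 19, 21, 31, 35, 47, 49, 51 or 57. That of Usp47 was lost without any 1 of rats 23, 27, 29, 31, 35, 37, 45, 47, 49 or 51. That of Usp15 was lost without rat 47, 49 or 51.

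Some close relatives within the family moved in opposite directions, and these sets were picked after their values were seen. Other relatives had the same sign in both legs, such as Usp7 and Usp47 and, among the E2s, Ube2g1 and Ube2g2. Usp5 rose while Usp13, which shares its domain order, fell by 0.61 in unloaded (SE 0.12, 1.52-fold, adjusted p = 0.00019) and 0.45 in loaded legs (SE 0.14, 1.37-fold, adjusted p = 0.011). The unloaded legs of Usp13 ran from 11.25 to 11.92 (median 11.55) at 6 h to 4 d and from 10.62 to 11.38 (median 10.86) at 9 to 14 d. Its other probe set fell by 0.85 and 0.74, and the call in loaded legs was lost without rat 49. Usp28 rose while its relative Usp25 fell by 0.35 (adjusted p = 0.00881) and 0.38 (adjusted p = 0.00482). Of the related Usp4, Usp11 and Usp15, the former pair rose and Usp15 fell. In label code 3 only Usp11 and Usp13 in unloaded legs were still called among these genes. The values there were 0.38 and 0.32 for Usp5 against -0.73 and -0.68 for Usp13, 0.65 and 0.53 for Usp28 against -0.42 and -0.36 for Usp25, and 0.37 and 0.47 for Usp4 against -0.24 and -0.24 for Usp15.

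Usp18, which removes the ubiquitin-like protein Isg15 and restrains the interferon receptor, exceeded its array's median on 6 of 46 arrays, all of legs at 9 to 14 d. It passed the filter through the group where it is high, so it had to differ and its levels are a description. It is 1 of the 10 and of the 13 Usp genes counted as higher. All its group means but that of the late unloaded legs lay below the lowest array median, so signal over background is not shown there. The unloaded legs at 9 to 14 d had 5.52, 5.66, 10.13, 6.75, 6.13 and 6.54. The leg of rat 49, at 10.13, stood far above the others, and its loaded leg had 7.13. Of 7 measured interferon-response genes, out of 12 listed, 4 rose in unloaded legs and 2 in loaded ones. Over all genes 28.7% and 29% rose. The mean of the list was 6.03 in unloaded and 5.97 in loaded legs at 6 h to 4 d, below the lowest array median of 6.07. Signal over background is thus not shown for the list there. Whether its genes passed the filter only through the late legs was not tested, so the counts are a description. The mean of that list reached 10.06 in 1 late unloaded leg, against 5.63 to 6.50 over the early ones. Its part in the value of Usp18 was not tested.

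At 5 to 8 d Usp20 was again among the largest rises, by 1.35 in unloaded and 1.55 in loaded legs, and Usp2 among the largest falls, by 0.86 and 1.00. Both later windows are set against the same early rats. Usp1 rose by 0.78 and 0.83 and Usp4 by 0.74 and 0.67. Against 6 h to 4 d, unloaded legs had 7 Ube2 genes higher and none lower, and 12 Usp genes higher and 6 lower, at a background of 35.9% (23.6% higher and 12.3% lower). Loaded legs had 6 Ube2 genes higher and 2 lower and 15 Usp genes higher and 5 lower, at 39.0% (26.9% higher and 12.0% lower). The balance of directions moved with the scaling: after cyclic loess 12 members were higher and 11 lower in unloaded and 13 and 12 in loaded legs. At 9 to 14 d cyclic loess gave 12 higher and 18 lower in unloaded and 13 and 18 in loaded legs. With the label code as a block 8 and 2 members passed at 5 to 8 d, against 8.15% and 9.15% of all genes. Usp20 and Usp2 were not among them in either leg. None passed within label code 3 (13 and 5 had an unadjusted p under 0.05), which has 2 rats there, against 0.172% and 0% of all genes. Between 9 to 14 d and 5 to 8 d limma called no member in either leg, at a background of 0.226% in each. Unadjusted p fell under 0.05 for 8 members in unloaded and 9 in loaded legs, and Usp16 in loaded legs came nearest (-0.53, adjusted p = 0.0925). With array quality weights 19 members passed in unloaded legs (5 higher and 14 lower) and 2 in loaded legs, against 23.8% and 1.46% of all genes.

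**Figure D4:**
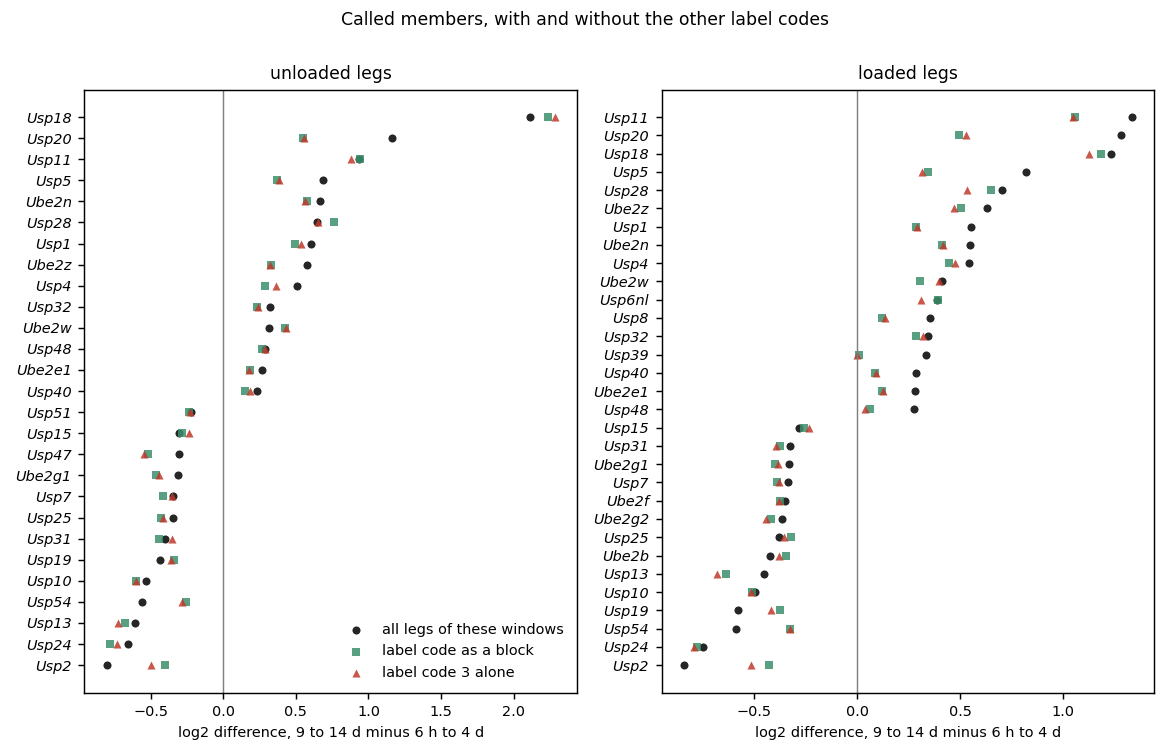
Log2 difference between 9 to 14 d and 6 h to 4 d of the members called in unloaded legs (27, left) and loaded legs (31, right), over all rats of both windows, with the label code as a block and in the rats of label code 3 alone. The sign was the same in all 27 and in 30 of 31 within label code 3; Usp20, Usp5 and Usp2 lie nearer to zero there, and Usp24, Usp10 and Usp13 do not.

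With the label code as a block the direction held in all 27 members called in unloaded legs and all 31 in loaded legs. In that fit 14 of each were still called, and Usp20, Usp5 and Usp2 were called in neither leg. Usp20 differed there by 0.55 in unloaded and 0.49 in loaded legs (adjusted p = 0.127 and 0.27). Usp5 differed by 0.37 and 0.34 (adjusted p = 0.146 and 0.25), and Usp2 by -0.40 and -0.43 (adjusted p = 0.184 and 0.177). Within label code 3 the direction held in 27 of 27 and 30 of 31, and the exception was Usp39, at -0.0004. The windows and label codes overlap in part only, so beyond label code 3 their contributions cannot be told apart.

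Passive loading moved the members little, as it did the genes of the array in general. The median absolute log2 difference between the legs was 0.044 for the members and 0.054 for all genes. Over all 23 rats 1 of 60 passed, against a background of 2.90%. That gene was Usp7, 0.13 higher in the loaded leg (SE 0.033, adjusted p = 0.0396, 1.09-fold). Its leg differences ran from -0.11 to 0.59 with a median of 0.13, and 21 of 23 rats were higher in the loaded leg. By window it was higher in 12 of 13, 3 of 4 and 6 of 6 rats, with means of 0.11, 0.20 and 0.11. It was higher in 10 of 10 rats of label code 3, with a mean of 0.18 (adjusted p = 0.198). The call was lost without any 1 of 14 rats (11, 15, 17, 19, 31, 35, 37, 43, 45, 49, 51, 53, 57 or 59). It was also lost without the filter (adjusted p = 0.0612), without the rats of uncertain pairing (adjusted p = 0.0903), and without the rat as a block (adjusted p = 0.507).

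Usp25 came next, higher by 0.14 (SE 0.038, adjusted p = 0.051) and in 18 of 23 rats; it passed without any 1 of 4 rats, with array quality weights and after cyclic loess. Ube2b was lower by 0.10 (adjusted p = 0.161), with means of 0.00, -0.18 and -0.26 in the successive windows. In the long window its leg difference ran from -0.55 to 0.07 and was negative in 5 of 6 rats.

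Within single windows no member was called for loading by limma, at backgrounds of 0% at 6 h to 4 d, 0% at 5 to 8 d and 0.269% at 9 to 14 d. Unadjusted p under 0.05 was reached by 11, 2 and 3 members. At 9 to 14 d the leg difference of Usp18 was between -0.30 and -3.01 in 5 of 6 rats and -0.0003 in rat 57, and it was not called (adjusted p = 0.0973). The lowest value was that of rat 49, and in rats 45 and 47 both legs lay below the lowest array median. Usp19 was higher in the loaded leg in 12 of 13 rats at 6 h to 4 d, by 0.13 (adjusted p = 0.263). In limma no member was called for a difference in the effect of loading at 9 to 14 d or 5 to 8 d against 6 h to 4 d, at backgrounds of 0% and 0%, and 5 and 3 members had an unadjusted p under 0.05. For Usp7 at 9 to 14 d the 95% interval of that difference ran from -0.16 to 0.17.

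**Figure D5:**
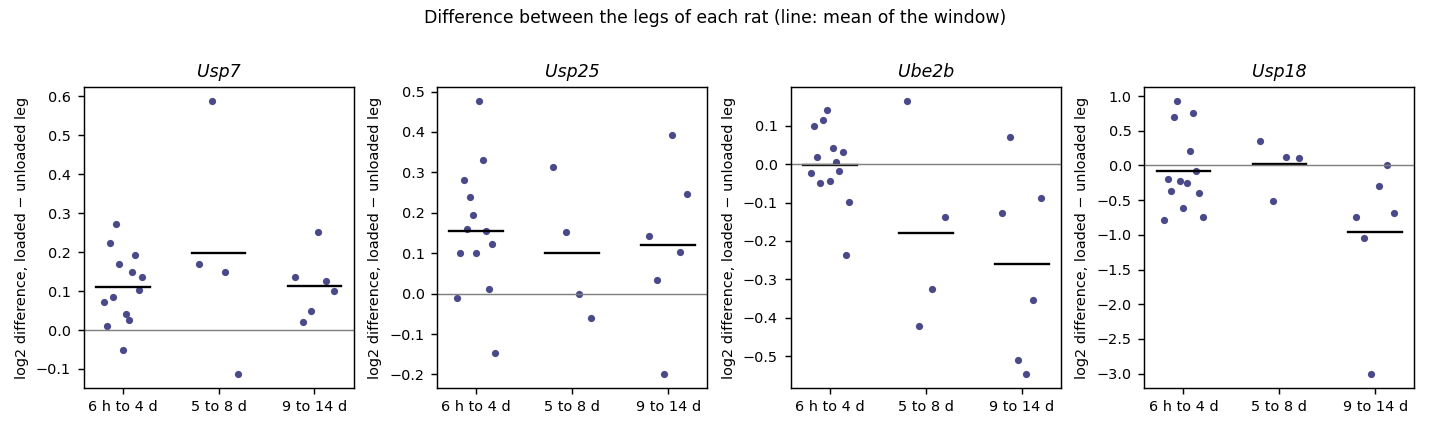
Log2 difference between the loaded and the unloaded leg of each of the 23 rats, by window, for Usp7, Usp25, Ube2b and Usp18 (points are rats, lines are window means, and each panel has its own axis). Usp7 is above zero in 21 of 23 rats, and 1 rat of the long window stands at -3.01 for Usp18.

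Calls in loaded and unloaded legs of the same rats were compared at 9 to 14 d. Of all genes, 45.6% passed in unloaded and 44.2% in loaded legs, and the overlap of these calls was not counted. The shares below can therefore not be read as particular to the members. The 4 Ube2 genes called higher were the same in both, and all 10 Usp genes called higher in unloaded legs were among the 13 of loaded legs (76.9%). Of the 12 Usp genes called lower in unloaded legs 10 were also called in loaded legs, and these were all 10 there. Of the 4 Ube2 genes called lower in loaded legs 1 was also called in unloaded legs (25%), and Ube2b, Ube2f and Ube2g2 were not. Usp39, Usp6nl and Usp8 were called higher in loaded legs alone, and Usp47 and Usp51 lower in unloaded legs alone. The differences between the legs were not called for any of them.

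Other parts of the ubiquitin pathway, from lists chosen with earlier results of these data known, are given by their counts at 9 to 14 d, beside 28.7% higher and 16.9% lower over all genes in unloaded and 29% and 15.2% in loaded legs. Of 9 measured E1 activating enzymes and subunits, 4 rose in unloaded and 3 in loaded legs and none fell. Of 6 E2-like enzymes without a Ube2 symbol, 5 and 4 rose, among them Tsg101, an inactive E2 variant of the ESCRT machinery, by 0.39 and 0.45. Of 23 deubiquitinases of other families, 8 rose and 2 fell in unloaded legs, and 13 rose and 3 fell in loaded legs. Otulin, which removes linear chains, rose by 1.48 and 1.85, and Uchl3 by 0.94 and 0.94.

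Of 6 measured partners of Usp enzymes, 3 rose in unloaded and 4 in loaded legs, with Wdr48, the cofactor of Usp1, up by 0.24 and 0.30, and Stam2, a partner of Usp8, by 0.74 and 0.80. Of 10 ubiquitin-like modifiers 3 rose in each leg, and 1 fell in loaded legs. Of 7 SUMO and NEDD8 proteases limma called 0 at 9 to 14 d, and Senp2 in unloaded legs alone had an unadjusted p under 0.05 (0.27, adjusted p = 0.0882). Of 10 ubiquitin ligases studied in muscle, 4 rose and 1 fell in unloaded and 3 rose and 1 fell in loaded legs, led by Fbxo30 (1.00 and 1.33), while Trim63 differed by -0.37 and -0.44 and was not called. With loading over all rats, 1 gene of these ubiquitin pathway lists was called, the SUMO protease Senp7, which fell by 0.26 in the loaded leg (adjusted p = 0.0083). None of the 4 ubiquitin genes passed the filter under its own symbol.

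Cell type markers moved with duration as well. Over all genes at 9 to 14 d, 28.7% were higher and 16.9% lower in unloaded legs, and 29% and 15.2% in loaded legs. At 9 to 14 d 6 of 9 muscle fibre markers were lower in each leg, with list means per unloaded leg of 12.66 to 13.37 against 12.75 to 13.64. Of 10 macrophage markers 6 were higher in unloaded and 4 in loaded legs, with list means of 7.33 to 9.75 against 6.94 to 8.08 in unloaded legs. At 5 to 8 d, however, no macrophage marker was higher and 1 was lower in each leg. Fibroblast markers were lower at 5 to 8 d, 7 of 8 in unloaded and 4 in loaded legs, against 12.3% and 12.0% of all genes. Their list means in unloaded legs went from 8.17 to 9.93 down to 7.85 to 8.18. At 9 to 14 d 2 of them were lower in unloaded and 1 in loaded legs. Of 4 endothelial markers 1 was lower in each leg at 9 to 14 d, and of 6 adipocyte markers 1 in unloaded legs. Only 2 of 11 markers of dividing cells were measured, of which Pcna rose in each leg and Bub1 fell in loaded legs. With loading over all rats 2 of 8 fibroblast markers were higher, and 1 interferon-response gene (Irf9) and 1 clock gene (Dbp) were lower. Over all genes 2.90% were called for loading. The part of these shifts in the members' changes was not tested. In whole muscle, fewer cells of a type and less RNA per cell cannot be told apart.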

How the data were processed

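The deposited table holds log2 expression values for 26208 probe sets on 46 arrays, which the authors made with RMA per the submitters' processing notes; its version and settings are not given in the sources used here. Quantile normalisation in RMA would remove a shift of most transcripts in 1 direction. Genes were named from the platform annotation, and those with 1 symbol were used. Only probe sets above the median of their array on 4 or more arrays were used (14834), the brightest for each gene (9289 genes). The tests were two-sided, by limma 3.58.1 (eBayes, run under R 4.3.3), with p-values adjusted by Benjamini-Hochberg across the 9289 genes at a threshold of 0.05. For loading, all arrays were fitted and each rat was a block. Windows were compared within the 23 unloaded and within the 23 loaded legs. The fits were tested on simulated data.

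Legs were paired by label number, which the labels do not state outright. The deviation of an unloaded leg from its group's mean correlated with that of its partner above 0.1 in 21 of 23 rats (median r = 0.60), and 6 rats (17, 19, 21, 23, 27 and 51) have an uncertain pairing.

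The members, lists and tests were chosen with earlier results of these data known. The rule for named genes took members called for loading, and where none was called the 3 of smallest p. It also took the 10 largest rises and 10 largest falls at 9 to 14 d in each leg, and a set of well-studied members. For loading within single windows the text does not name all 3. Other genes are given as counts and ranges, or named where a count was small. Alternatives were no filter, cyclic loess, array quality weights, the mean of a gene's probe sets, leaving out rats, the label code as a block or alone, and no block.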

Additional observations from a re-analysis of the deposited data

Results flagged for a closer look

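Among 140 groups of 4 or 6 legs examined for 35 named members, 5 had a value far from the other legs of the group; chance alone marks about 1 group in 20. Usp18 in the unloaded leg of rat 49 (9 to 14 d) was at 10.13, and the next highest leg at 6.75. Usp28 was high in both legs of rat 41 (5 to 8 d), at 10.21 in the unloaded leg, with the next at 9.62, and 10.09 in the loaded leg, with the next at 9.57. Ube2b was low in the unloaded leg of rat 41, at 11.43, with the nearest leg at 11.80. Ube2g2 was low in the unloaded leg of rat 43 (5 to 8 d), at 9.98, with the highest leg of the group at 11.18.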

How the results depend on the processing

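The 89 differences examined were those of named members for loading over all rats and at 9 to 14 d against 6 h to 4 d. No called one among them changed sign under any alternative. Usp39, which was not among them, turned sign in loaded legs of label code 3 at 9 to 14 d. At 5 to 8 d 23 of 25 called members kept their direction in label code 3 in unloaded legs, and 27 of 28 in loaded legs. Array quality weights raised the count of called members from 1 to 4 for loading over all rats, from 0 to 8 for loading at 5 to 8 d, from 0 to 5 for its difference from 6 h to 4 d, and from 0 to 19 in unloaded and 2 in loaded legs between 9 to 14 d and 5 to 8 d. In the same fits 9.43%, 12.7%, 5.66%, 23.8% and 1.46% of all genes were called. For loading over all rats the count was 0 without the filter, 0 without the replicate block, 0 in label code 3 alone, 2 after cyclic loess and 2 without rats 21 and 27. Within single windows no member was called for loading with or without the rat as a block, so there was no call to change. Over all genes at 9 to 14 d, 25 were called with that block and 2 without it. With the label code as a block the counts against 6 h to 4 d were 8 (unloaded, 5 to 8 d), 15 (unloaded, 9 to 14 d), 2 (loaded, 5 to 8 d) and 15 (loaded, 9 to 14 d), and in label code 3 alone 0, 7, 0 and 2. Without rats 35 and 37, 1 member was called in loaded legs between the later windows. With 1 rat left out at a time, counts ran from 0 to 2 for loading over all rats, 0 to 1 for loading at 9 to 14 d, 17 to 27 and 21 to 29 in unloaded legs, and 20 to 31 and 27 to 32 in loaded legs at 5 to 8 d and 9 to 14 d. Between the later windows they ran from 0 to 8 in unloaded and 0 to 2 in loaded legs. The cause was not tested. Signal over background is not shown for Usp18, and the number of arrays limits the rest.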
